A study of Mus musculus with 6 samples.

Results

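The genes that encode the subunits of oxidative phosphorylation (OXPHOS) were examined in whole brain RNA of mice fed PLDP, a protease digest of porcine liver, and of control mice. Members were chosen by name: protein-coding rows whose Ensembl identifier maps in GENCODE M21 (build GRCm38) to the mt-Nd, mt-Co, mt-Cytb and mt-Atp genes, to numbered Nduf genes of the a, b, c, s and v series, to Cox genes numbered from 4 to 8, to Uqcr and Atp5 genes, to Cyc1 or to Sdha, Sdhb, Sdhc and Sdhd, with Ndufa4l2 left out. This gave 96 members among the 60354 features of the count files, of which 13 are encoded by mitochondrial DNA and 83 by nuclear DNA. The nuclear members comprised 35 of complex I, 4 of complex II, 9 of complex III, 18 of complex IV and 17 of complex V. The mitochondrial members comprised 7 of complex I, 1 of complex III, 3 of complex IV and 2 of complex V. Cox4i1, the main form of its subunit, and a second identifier of Atp5o have names of this kind in GENCODE M21 but are not among these 96 and were not analysed here. Ndufa4 was counted with complex IV, where the protein resides, and Atp5s, which carries an ATP synthase name but is not a subunit of the enzyme, was kept because its name fits.

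All mice were male C57BL/6NCrSlc, an inbred strain without engineered alleles, and were 16 weeks old when feeding began. PLDP mice ate a modified AIN-93M diet holding 20% PLDP for 16 weeks, whereas control mice ate modified AIN-93M of matched calories, and each group numbered 13. RNA was taken from 3 mice per group after behavioral tests that followed the feeding period, and PLDP was withheld during those tests. Libraries of polyadenylated RNA were made with a kit that keeps strand, and mice are named here by the label numbers 2, 5 and 10 (control) and 17, 22 and 26 (PLDP).

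OXPHOS couples the oxidation of NADH and succinate to ATP synthesis in the inner mitochondrial membrane. Complexes I, III and IV pass electrons to oxygen and pump protons, complex II feeds electrons from succinate without pumping, and complex V lets protons return and makes ATP. Neurons depend heavily on this route, and all complexes except II are mosaics of subunits encoded by the mitochondrial and the nuclear genomes.

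Totals ran from 18797061 to 23938729 counts per mouse, and the members together took from 3.55% to 3.84% of them. Markers of neurons summed to between 5696 and 5879 CPM (read counts relative to the scaled library size) over the 6 mice. Calls rest here on an unadjusted p below 0.05, a rule by which 3.69% of all features were lower and 4.91% higher in PLDP mice. Beside these shares, 8 of 9 markers of hindbrain and spinal cord were lower in PLDP mice, and their summed level was from 160 to 175 CPM in control mice and from 87.2 to 123 CPM in PLDP mice. Of 8 choroid plexus markers, 2 were lower and all had a log2 fold change below 0, with sums from 759 to 816 CPM in control mice and from 595 to 757 CPM in PLDP mice. Most of that sum was Ttr, which the liver list also holds. Of 8 oligodendrocyte markers, 2 were lower, with sums from 5140 to 5523 CPM in control mice and from 4782 to 5406 CPM in PLDP mice, and of 7 endothelial markers, 2 were higher, with sums from 193 to 203 and from 197 to 215 CPM. Each of the other marker lists had at most 1 call. In whole brain RNA, fewer cells of a type and less RNA per cell cannot be told apart, and the part of these differences in the values of the members was not tested.

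The mitochondrial members were read first through their sequences, because most of their rows held no count. Of 13 rows, 10 were listed at 0 in every mouse: mt-Nd1, mt-Nd2, mt-Nd3, mt-Nd4, mt-Nd4l, mt-Nd5, mt-Co2, mt-Co3, mt-Atp6 and mt-Atp8. Counts were present on mt-Co1, the catalytic subunit of complex IV, on mt-Cytb, the cytochrome b of complex III, and on mt-Nd6, a membrane subunit of complex I. For 6 of the 10 rows at 0, a near-identical unprocessed pseudogene on chromosome 1 held counts, and a further copy matched part of mt-Co1. These 7 pseudogenes lie side by side on the minus strand between chr1:24611535 and 24616197. The first 120 bases of mt-Atp6 (chrM:7927-8046, plus strand), which encodes a proton channel subunit of complex V, and of its copy Gm10925 (chr1:24614532-24614651, minus strand) are shown because they cannot be distinguished. Over the 678 bases that align, the pair differed at 0 positions.
mt-Atp6: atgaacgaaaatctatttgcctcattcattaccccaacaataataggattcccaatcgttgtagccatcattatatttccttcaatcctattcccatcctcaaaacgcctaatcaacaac
Gm10925: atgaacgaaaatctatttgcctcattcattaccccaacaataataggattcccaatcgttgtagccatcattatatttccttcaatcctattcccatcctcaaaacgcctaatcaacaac

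The start of mt-Nd3 (chrM:9459-9578, plus strand), a complex I subunit, and of its copy Gm28438 (chr1:24613000-24613119, minus strand) shows a pair with a single difference. The capital marks T3C, with positions counted from 1 at the first base printed and the base of mt-Nd3 given first.
mt-Nd3: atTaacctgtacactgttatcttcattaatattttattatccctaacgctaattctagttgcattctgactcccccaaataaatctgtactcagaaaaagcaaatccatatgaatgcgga
Gm28438: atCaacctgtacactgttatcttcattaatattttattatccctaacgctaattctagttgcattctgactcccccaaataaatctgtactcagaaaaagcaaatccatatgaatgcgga

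The copies carried more counts than the member rows. Gm10925 stood at 8128, 8448 and 7961 CPM in control mice 2, 5 and 10 and at 8190, 8189 and 8298 CPM in PLDP mice 17, 22 and 26. The mt-Nd3 copy Gm28438 stood at 752, 787 and 741 CPM in control mice and at 848, 772 and 788 CPM in PLDP mice. Neither pair of groups was separated. In each mouse, the 7 chromosome 1 rows took from 3.09% to 3.29% of all counts and the mitochondrial member rows from 2.53% to 2.79%. These pseudogenes are given beside the members, and over the stretches that align without a difference, reads of a member and its copy cannot be told apart. The chromosome 1 copies do not always span the member. That of mt-Co1 aligned over 492 of its 1545 bases with 6 differences. That of mt-Nd4 matched 876 bases of a gene listed at 0 over its whole length. Another copy of mt-Co1, Gm13340 on chromosome 2, had a match of 1545 bases and was not among the copies whose counts were added. For mt-Nd1, mt-Nd2, mt-Nd5 and mt-Atp8, no copy of at least 98% identity was found among the annotated transcripts, and their 0 is a value of the count files, not a level of the transcripts.

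**Figure D1:**
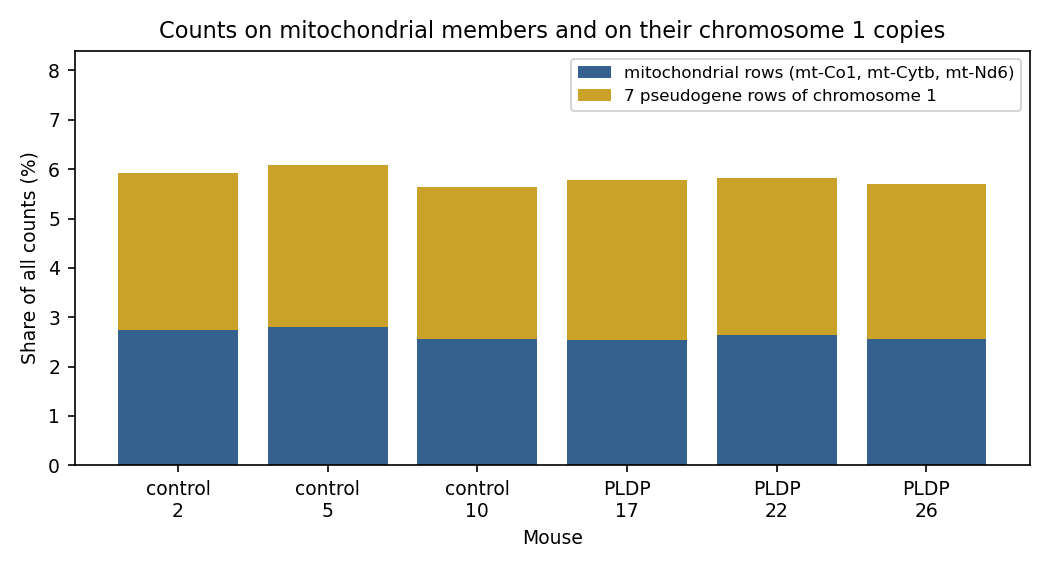
Share of all counts (y axis, percent) in each of the 6 mice (x axis), split into the mitochondrial member rows and their 7 pseudogene rows on chromosome 1. The copies hold the larger share in every mouse, from 3.09% to 3.29%, and the bars of the 2 diets overlap in height.

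Among mitochondrial members, mt-Co1 was lower in PLDP mice by a small amount. Its level was 21061, 21480.2 and 19429 CPM in control mice and 19306, 20060.4 and 19465 CPM in PLDP mice. Control mouse 10 lay within the range of the PLDP mice, so the groups overlapped. The log2 fold change was -0.07 ± 0.03 (SE, n = 3 per diet), with an unadjusted p of 0.0297 and a Benjamini-Hochberg adjusted p of 0.516 in the quasi-likelihood test of edgeR. When the counts of the copy Gm29216 were added, the log2 fold change was -0.06 ± 0.03 and the unadjusted p of the same edgeR test was 0.0505. The call did not hold in that sum.

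The other mitochondrial rows with counts did not pass the test. mt-Cytb was at 6296, 6468 and 5927 CPM in control mice and at 5902, 6274 and 6146 CPM in PLDP mice (log2 fold change -0.03 ± 0.03, edgeR unadjusted p = 0.402). mt-Nd6, the member encoded on the opposite strand to the others, was at 79.4, 85.6 and 75.9 CPM in control mice and at 86.9, 82.8 and 87.0 CPM in PLDP mice (log2 fold change 0.09 ± 0.05, edgeR unadjusted p = 0.0962). The log2 fold change of mt-Nd6 was 0.14 without control mouse 5, where it passed (edgeR unadjusted p = 0.0229), and -0.01 with correction for GC content and exon length. With copies added, 1 member was called higher and 7 lower (4.92% and 3.68% of all features), 9 mitochondrial members could be tested, 0 of these passed at an unadjusted p under 0.05 in edgeR, and their log2 fold changes ran from -0.06 to 0.09. The chromosome 1 copies of mt-Co2, mt-Co3, mt-Nd4 and mt-Nd4l had log2 fold changes of 0.00, 0.02, -0.01 and -0.04 when taken alone. That of mt-Nd3 moved most, at 0.08 ± 0.04 (edgeR unadjusted p = 0.0663). The groups overlapped for each of these pseudogene rows, whose counts cannot be read as levels of the genes alone.

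The balance of the 2 genomes was compared as the summed CPM of mitochondrial members divided by that of nuclear members. The ratio was 2.63, 2.68 and 2.49 in control mice and 2.37, 2.70 and 2.57 in PLDP mice. PLDP mouse 17 had the lowest ratio and PLDP mouse 22 the highest of the 6. The means were 2.60 ± 0.0987 (SD, n = 3) and 2.55 ± 0.166 (SD, n = 3), a PLDP to control ratio of 0.979. With the copies added to both classes, the ratio was 5.58, 5.72 and 5.38 in control mice and 5.30, 5.83 and 5.61 in PLDP mice, and the PLDP to control ratio was 1.004. In either counting, the difference between diets was smaller than the SD within a diet.

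Enough counts for the test were held by 83 members, 80 nuclear and 3 mitochondrial. Over these 83, the highest mouse exceeded the lowest by a median factor of 1.14. The log2 fold change between diets was under 0.1 in size for 71 of these 83 members, and only Ndufa12, Ndufs3, Cox7a1 and Cox8b reached 0.2 or more. Under the threshold used, an unadjusted p below 0.05 in the edgeR test, 2 members, both nuclear, were higher in PLDP mice and 8 were lower, 7 of them nuclear. Over all 18580 features tested, 4.91% were higher, 3.69% lower and 8.6% either by the same rule, against 2.41% and 9.64% of the members. None of the 83 members passed after Benjamini-Hochberg adjustment, where the smallest edgeR adjusted p was 0.399, whereas 6 of all features (0.0323%) did. DESeq2 called 5 members lower and 0 higher by its unadjusted p, beside 1.95% and 3.04% of all features, and 0 members after adjustment.

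Small differences leaned to one side. Of the 80 nuclear members tested, 53 had a log2 fold change below 0, which is 66.2%, against 50.2% of all features. The median was -0.03 for nuclear members and 0.00 for all features. By complex, the nuclear medians were -0.02 for complex I, -0.04 for complex II, -0.04 for complex III, -0.03 for complex IV and -0.01 for complex V. Without PLDP mouse 22, the medians of complexes I and V were both 0.03, and without PLDP mouse 26 that of complex V was just above 0, whereas those of complexes II, III and IV were below 0 in all 16 alternative analyses. Single mice also moved the size: the median of complex III ran from -0.08 without PLDP mouse 17 to -0.02 without PLDP mouse 26, that of complex IV from -0.09 without PLDP mouse 17 to -0.01 without PLDP mouse 22, and that of complex II from -0.05 without control mouse 10 to -0.03 without control mouse 2. All 3 PLDP mice lay below all 3 control mice for 8 members and above them for 2, where 6.9% and 7.29% of all features were separated in these ways. With 3 mice per diet, an exact permutation test of a single member cannot go below a two-sided p of 0.1. The lean depended on single mice, as described with the values by mouse.

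**Figure D2:**
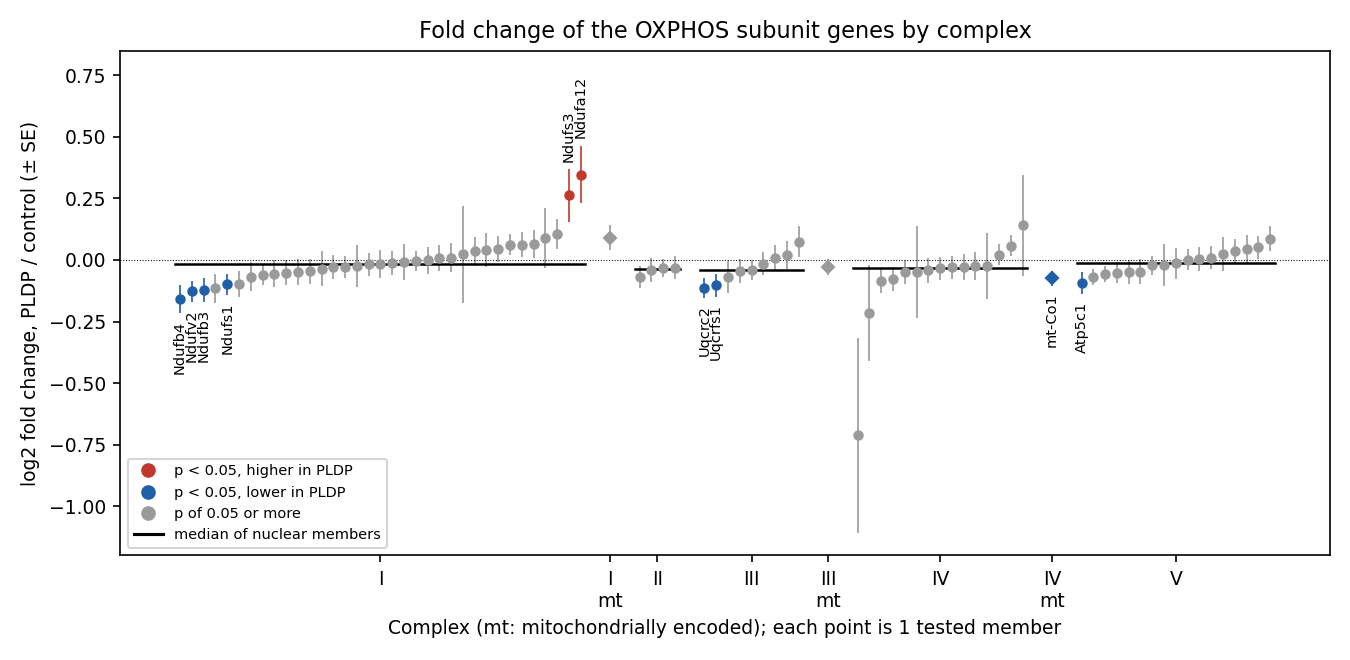
Log2 fold change of PLDP against control mice (y axis, ± SE) for each of the 83 tested members, ordered by size within each complex (x axis), with diamonds for mitochondrially encoded members and black lines for nuclear medians. Blue and red points passed an unadjusted p of 0.05: 8 lower and 2 higher, with the nuclear medians between -0.04 and -0.01.

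In complex I, which oxidizes NADH, 4 nuclear members were lower in PLDP mice (11.4%) and 2 were higher (5.71%) among 35 tested, beside 3.69% and 4.91% of all features. Ndufv2 (chr17:66078638-66101559), an iron-sulfur flavoprotein subunit of the NADH-oxidizing tip, was at 153, 150 and 153 CPM in control mice and at 146, 135 and 136 CPM in PLDP mice. Every PLDP mouse was below every control mouse. Its log2 fold change was -0.13 ± 0.04 (n = 3 per diet), with an unadjusted p of 0.00875 and an adjusted p of 0.399 by the edgeR test. Ndufv2 was the only member called in all 16 alternative analyses.

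Ndufs1 (chr1:63143596-63176833), the large iron-sulfur subunit next to Ndufv2 in the enzyme, was at 147, 140 and 145 CPM in control mice and at 130, 139 and 135 CPM in PLDP mice. The groups did not overlap, and here mouse 17 was the lowest of the PLDP mice. This gave a log2 fold change of -0.10 ± 0.04, with an edgeR unadjusted p of 0.0351 and an adjusted p of 0.533. Exons of Ndufs1 overlap Eef1b2 and Ino80dos on the other strand by 498 bases, and it is not given whether the counting used strand.

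A pair of accessory subunits of the membrane arm of complex I was also lower. Ndufb3 (chr1:58586384-58595964) was at 66.7, 67.9 and 64.4 CPM in control mice and at 61.9, 59.2 and 61.9 CPM in PLDP mice, without overlap of the groups. Its log2 fold change was -0.12 ± 0.05, with an edgeR unadjusted p of 0.0242 and an adjusted p of 0.493. Ndufb4 (chr16:37647170-37654453) was at 55.9, 61.0 and 57.5 CPM in control mice and at 56.1, 49.1 and 51.1 CPM in PLDP mice. Mouse 17 lay among the control mice for Ndufb4, whereas mice 22 and 26 were below them. For Ndufb4 the log2 fold change was -0.16 ± 0.06, with an edgeR unadjusted p of 0.0151 and an adjusted p of 0.448. Ndufb4 has a processed pseudogene, Ndufb4c, identical to it over 390 bases, and with its counts added the log2 fold change was -0.15 ± 0.06 (edgeR unadjusted p = 0.0189).

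Ndufa12 and Ndufs3 were the members called higher, and both varied widely between mice. Ndufa12 (chr10:94198720-94221443), an accessory subunit of complex I, was at 57.1, 53.3 and 56.4 CPM in control mice and at 82.9, 51.2 and 78.8 CPM in PLDP mice. Mice 17 and 26 stood far above the control mice, and mouse 22 stood below all of them. In the edgeR test the log2 fold change was 0.35 ± 0.12, with an unadjusted p of 0.00886 and an adjusted p of 0.399. Ndufs3 (chr2:90894634-90904827), a core subunit of complex I, was at 87.6, 70.4 and 56.8 CPM in control mice and at 89.6, 92.7 and 74.9 CPM in PLDP mice. Control mouse 2 was close to the PLDP mice, and the groups overlapped. For Ndufs3 the log2 fold change was 0.26 ± 0.11, with an edgeR unadjusted p of 0.0258 and an adjusted p of 0.497. Without control mouse 10, Ndufs3 had a log2 fold change of 0.12 (edgeR unadjusted p = 0.203), and without control mouse 2 it had 0.43. Its call was also lost without PLDP mouse 22 (0.20) or control mouse 5 (0.25). Ndufa12 had 0.21 without PLDP mouse 17, where its call was lost (edgeR unadjusted p = 0.0598), and 0.54 without PLDP mouse 22. That last fit gave Ndufa12 an edgeR adjusted p of 0.000416, where 14 of all features (0.0741%) passed after adjustment. Without a filter on low counts, the edgeR adjusted p was 1.63e-06 for Ndufa12 and 0.000698 for Ndufs3, where 180 of 36099 features (0.499%) passed. DESeq2 gave fold changes of the same size, 0.35 for Ndufa12 and 0.26 for Ndufs3, with unadjusted p of 0.104 and 0.195.

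Ndufa12 has a processed pseudogene without introns, Gm15920, that matches 402 bases of its transcript with 2 differences. A 300-base stretch of the coding sequence of Ndufa12, spliced from chr10:94199988-94220847 on the plus strand, is shown with the matching stretch of Gm15920 (chr5:130188483-130188782, plus strand) because the counts of the pair moved in opposite directions. Capitals mark the differences A11G and T290C, counted from 1 at the first base printed, with the base of Ndufa12 first.
Ndufa12: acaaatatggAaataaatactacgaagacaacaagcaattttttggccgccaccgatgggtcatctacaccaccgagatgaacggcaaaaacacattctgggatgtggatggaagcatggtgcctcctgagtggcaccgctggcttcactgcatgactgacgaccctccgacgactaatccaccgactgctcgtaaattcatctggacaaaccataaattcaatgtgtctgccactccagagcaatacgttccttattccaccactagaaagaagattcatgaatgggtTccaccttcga
Gm15920: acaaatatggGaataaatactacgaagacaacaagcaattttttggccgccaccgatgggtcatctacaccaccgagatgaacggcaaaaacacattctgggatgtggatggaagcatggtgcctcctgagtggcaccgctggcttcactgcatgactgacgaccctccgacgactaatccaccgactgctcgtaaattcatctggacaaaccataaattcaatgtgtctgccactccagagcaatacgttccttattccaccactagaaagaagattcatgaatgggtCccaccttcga

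Gm15920 was at 37.1, 35.7 and 33.9 CPM in control mice and at 19.5, 33.6 and 14.8 CPM in PLDP mice. The mice in which Gm15920 was low, 17 and 26, were those in which Ndufa12 was high, and mouse 22 resembled the control mice in both rows. Gm15920 had a log2 fold change of -0.63 ± 0.17, with an edgeR unadjusted p of 0.00222 and an adjusted p of 0.291. The sum of the pair was 94.2, 89.1 and 90.3 CPM in control mice and 102, 84.9 and 93.6 CPM in PLDP mice. For the sum, the log2 fold change was 0.04 ± 0.06 and the edgeR unadjusted p was 0.534. For Ndufs3, adding its copy Gm12251 left the log2 fold change at 0.22 ± 0.09 (edgeR unadjusted p = 0.0232).

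**Figure D3:**
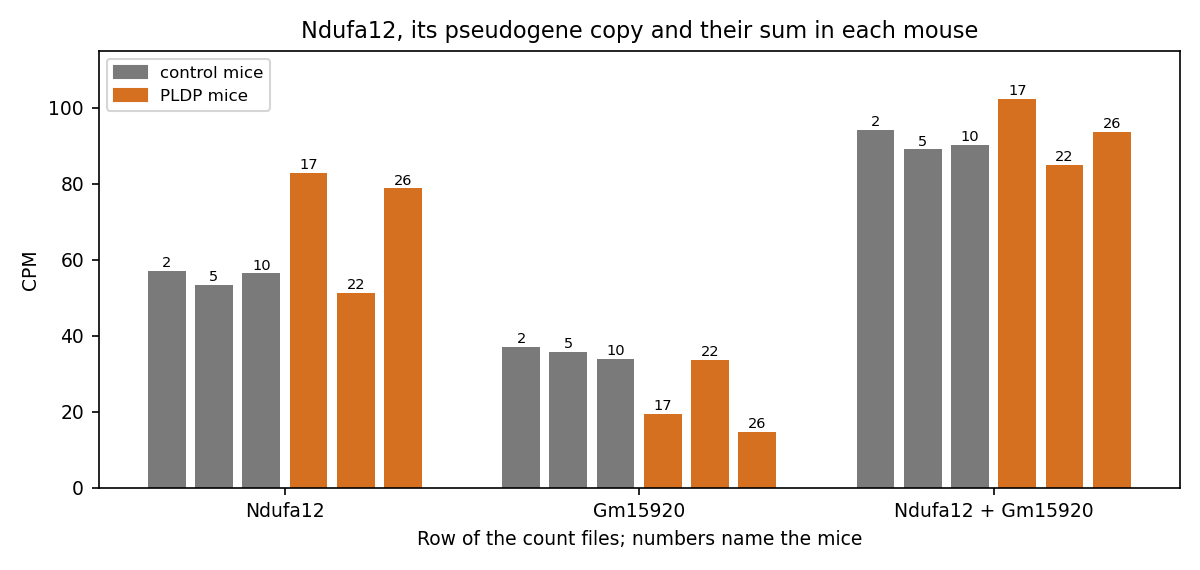
CPM (y axis) of Ndufa12, of its pseudogene copy Gm15920 and of their sum (x axis), with 1 bar per mouse. PLDP mice 17 and 26 are high for Ndufa12 (82.9 and 78.8 CPM) and low for Gm15920 (19.5 and 14.8 CPM), while the sums lie between 84.9 and 102 CPM in all 6 mice.

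The most abundant nuclear transcripts of complex I per length did not pass the test. Ndufa1 stood at 132 ± 6.08 CPM per kilobase of exon (SD over 6 mice), Ndufc2 at 113 ± 2.83 and Ndufa8 at 101 ± 5.16. Their log2 fold changes were -0.06 ± 0.06, -0.03 ± 0.05 and 0.04 ± 0.05. Some rows of the complex were low: Ndufb2 reached between 2.52 and 4.32 CPM and Ndufb8 between 6.30 and 8.51 CPM. Per kilobase of exon, Ndufb2 stood at 0.565 and Ndufb8 at 2.38 CPM, whereas the median of nuclear complex I members was 56.5. Exons of Ndufb2 overlap Gm42420 and those of Ndufb8 overlap Gm20538 on the same strand.

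Complex II, succinate dehydrogenase, is encoded entirely in the nucleus. All 4 of its genes had log2 fold changes slightly below 0, and 0 of 4 passed the edgeR test at an unadjusted p under 0.05, beside 8.6% of all features in either direction. Sdha, the flavoprotein subunit, stood at 415, 416 and 407 CPM in control mice and at 404, 398 and 409 CPM in PLDP mice. Its log2 fold change was -0.03 ± 0.04. Those of Sdhb, the iron-sulfur subunit, and of the membrane anchors Sdhc and Sdhd were -0.07 ± 0.04, -0.03 ± 0.05 and -0.04 ± 0.05. The summed level of the complex was 713, 709 and 698 CPM in control mice and 696, 682 and 686 CPM in PLDP mice, and the nearest mice of the diets were 698 and 696 CPM.

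In complex III, 2 of 9 nuclear members were lower in PLDP mice and 0 were higher, beside 3.69% and 4.91% of all features. Uqcrc2 (chr7:120635176-120659524), a core protein that supports assembly of the complex, was at 190, 192 and 189 CPM in control mice and at 181, 176 and 170 CPM in PLDP mice. No PLDP mouse reached the lowest control mouse. For Uqcrc2 the log2 fold change was -0.11 ± 0.04, with an edgeR unadjusted p of 0.0111 and an adjusted p of 0.422. Uqcrfs1 (chr13:30540308-30545362), the Rieske iron-sulfur protein, was at 110, 108 and 106 CPM in control mice and at 106, 96.4 and 99.9 CPM in PLDP mice. Mouse 17 lay just under the lowest control mouse. The log2 fold change was -0.10 ± 0.05, with an edgeR unadjusted p of 0.0420 and an adjusted p of 0.561. Exons of Uqcrc2 overlap Pdzd9 on the other strand by 504 bases.

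The most abundant nuclear transcripts of complex III per length were those of small subunits. Uqcr10 stood at 153 ± 4.64, Uqcrh at 112 ± 6.46 and Uqcr11 at 97.7 ± 7.14 CPM per kilobase of exon (SD over 6 mice). Their log2 fold changes were -0.01 ± 0.05, 0.01 ± 0.05 and 0.07 ± 0.06, and none of these 3 passed the test.

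Complex IV, cytochrome c oxidase, had 15 tested nuclear members, and 0 passed the edgeR test at an unadjusted p under 0.05, beside 8.6% of all features. Within complex IV, Cox6a1 was the most abundant nuclear member per length, at 292 ± 15.1 CPM per kilobase of exon, followed by Cox6b1 at 255 ± 8.02 and Ndufa4 at 165 ± 9.53 (SD over 6 mice). The range of Cox6a1 was from 272 to 310 CPM per kilobase and that of Cox6b1 from 244 to 269, so that these neighbours in the order did not overlap. The log2 fold changes of the 3 were -0.05 ± 0.05, 0.02 ± 0.04 and -0.04 ± 0.05.

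Isoforms of a subunit differed widely in level. Cox6a2 and Cox7a1, known from heart and skeletal muscle, stood at 3.93 and 5.09 CPM per kilobase of exon, against 292 for Cox6a1 and 119 for Cox7a2. Cox6b2, known from testis, stood at 4.21, against 255 for Cox6b1. Cox4i2, the form linked to low oxygen, was at 2.2 CPM per kilobase. Cox7a2l, which supports joining of complexes into supercomplexes, was at 95.3 and Cox7b at 104 CPM per kilobase. Cox8b, another muscle form, was at 1.01, 0.454 and 1.16 CPM in control mice and at 0.372, 0.755 and 0.428 CPM in PLDP mice, with overlap of the groups and a log2 fold change of -0.71 ± 0.40 (edgeR unadjusted p = 0.0902). Cox8b passed at -1.12 without PLDP mouse 22 (edgeR unadjusted p = 0.0319), at -1.03 without control mouse 5 (0.0150) and without a filter on low counts (0.0426), and was at -0.46 without control mouse 10. Cox7b2, Cox8a and Cox8c had too few counts for the test. Cox8c was at 0 in every mouse, Cox7b2 was at or below 0.14 CPM and Cox8a was between 0.267 and 0.630 CPM. These are values of the count files, and whether they give the levels of the transcripts was not tested. Markers of striated muscle summed to between 3.56 and 4.58 CPM in all mice.

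In complex V, the ATP synthase, 1 of 17 nuclear members was lower in PLDP mice (5.88%, beside 3.69% of all features) and 0 were higher (beside 4.91%). Atp5c1 (chr2:10056016-10080510), the gamma subunit of the rotating stalk, was at 180, 181 and 171 CPM in control mice and at 175, 164 and 159 CPM in PLDP mice. Mouse 17 lay within the range of the control mice. The log2 fold change was -0.10 ± 0.04, with an edgeR unadjusted p of 0.0490 and an adjusted p of 0.578. Just beyond the threshold was Atp5b, the catalytic beta subunit, at 1236, 1221 and 1193 CPM in control mice and at 1191, 1139.6 and 1149 CPM in PLDP mice. For Atp5b the log2 fold change was -0.07 ± 0.03 and the edgeR unadjusted p was 0.0526. Atp5b was called lower in 7 of the 16 alternatives, among them those without PLDP mouse 17 (-0.09, edgeR unadjusted p = 0.00516) and without control mouse 10 (-0.08, edgeR unadjusted p = 0.0338). Atp5a1, the alpha subunit, had a log2 fold change of -0.06 ± 0.03 (edgeR unadjusted p = 0.106), and its groups, like those of Atp5b, did not overlap.

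Per length, Atp5b stood at 280 ± 9.03, Atp5a1 at 269 ± 6.65 and Atp5k at 160 ± 10.3 CPM per kilobase of exon. Subunit c, the ring of the rotor, is made from any of 3 genes: Atp5g3 was at 108 ± 2.05, Atp5g2 at 35.8 ± 1.10 and Atp5g1 at 22.4 ± 0.946 CPM per kilobase. Per kilobase, their ranges over the 6 mice did not overlap. The order of Atp5g2 and Atp5g1 rests on their annotated exon lengths of 1675 and 4912 bases. In CPM not divided by length, Atp5g1 was the higher of the 2, with means of 109 in control and 111 in PLDP mice. Those of Atp5g2 were 61.0 and 59.0 CPM. The log2 fold changes of Atp5g3, Atp5g2 and Atp5g1 were -0.02 ± 0.04, -0.05 ± 0.05 and 0.03 ± 0.05. Atp5e, the epsilon subunit, was higher in each PLDP mouse than in each control mouse (85, 84.1 and 85.5 against 96.5, 85.8 and 88.1 CPM) without passing the edgeR test (unadjusted p = 0.102).

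**Figure D4:**
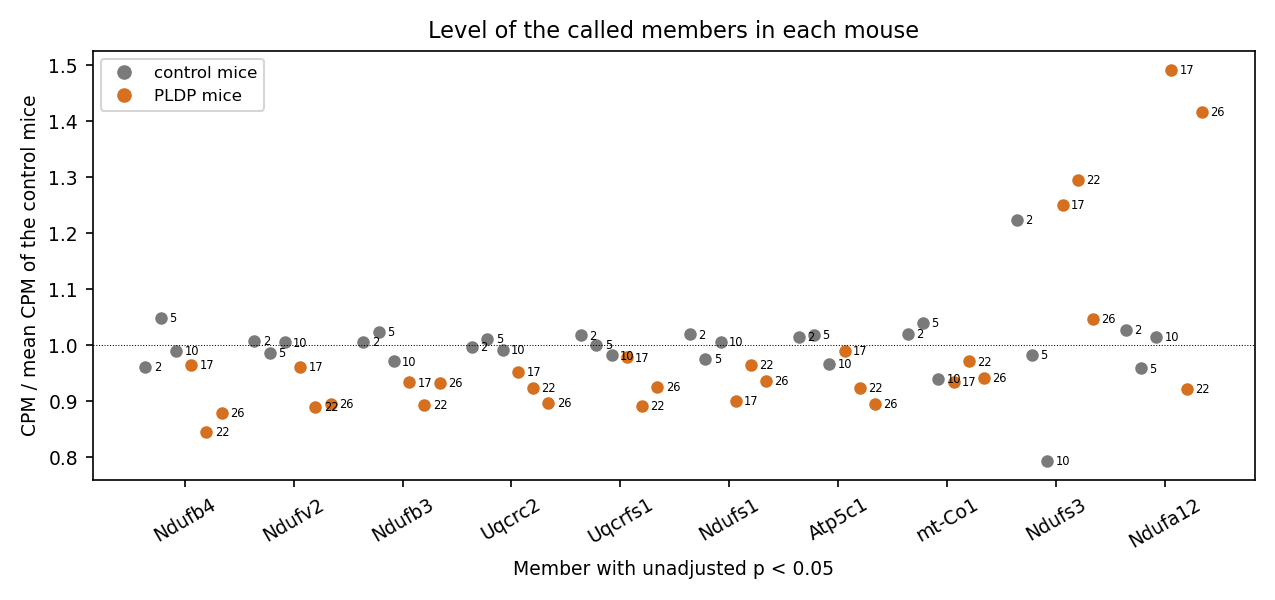
Level of each of the 10 called members in each mouse, as CPM divided by the mean of the control mice (y axis), with mouse numbers beside the points and members ordered by fold change (x axis). For the 8 lower members, all PLDP mice lie under the control mean, with mouse 17 inside or near the control range for several, while Ndufa12 and Ndufs3 spread widely within a diet.

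The values of single mice showed a common pattern across nuclear members. Among the 3 PLDP mice, mouse 17 was the highest for 72 of 80 nuclear members and mouse 22 the lowest for 55. Over all 18580 features, mouse 17 was the highest PLDP mouse for 37.9% and mouse 22 the lowest for 32.4%. Among all 6 mice, mouse 17 was the highest for 46 and mouse 22 the lowest for 48 of the 80 nuclear members. The median difference of nuclear members from the mean of the 6 mice, on the log2(CPM + 0.5) scale, was 0.02, 0.03 and -0.01 in control mice 2, 5 and 10 and 0.07, -0.07 and -0.04 in PLDP mice 17, 22 and 26. The 3 PLDP mice thus differed more from each other than the diets did. Complexes I, III, IV and V followed this order, with medians from 0.07 to 0.08 in mouse 17, whereas complex II stood at 0.00 there.

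Gene length moved with the same mice. Nuclear members are short, with a median exon length of 1631 bases against 3886 over all features. Protein-coding genes with under 1000 bases of exon had medians of 0.08 in mouse 17 and -0.06 in mouse 22, and those with over 4000 bases had -0.02 and 0.02. Nuclear members with over 2000 bases of exon had medians of 0.06 in mouse 17 and -0.06 in mouse 22. Lengths here join all annotated exons of a gene. The mitochondrial ribosomal proteins, a nuclear group outside the rule, had medians of 0.07 in mouse 17 and -0.04 in mouse 22. In a fit that corrects each gene for GC content and exon length together, 3 members were higher and 13 lower, against 5.19% and 4.32% of all features. The part of length alone was not tested.

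The counts of called members depended on which mouse was left out. Without PLDP mouse 17, 28 members were lower and 1 higher by the unadjusted edgeR p, where 5.69% and 6.86% of all features were lower and higher. Ndufv2 then had an adjusted p of 0.0453 in edgeR, in a fit where 182 of all features (0.966%) passed after adjustment, against 6 with all mice. The 28 included Atp5a1, Atp5b, Cox6a1, Cox7a2, Cox7a2l, Ndufa4 and Sdhb, which did not pass with all mice. Without PLDP mouse 22, 5 were lower and 2 higher, beside 3.98% and 4.2% of all features, and the nuclear median was 0.00. Without PLDP mouse 26, 3 were lower and 2 higher, beside 3.33% and 3.91%. Leaving out control mouse 2 gave 4 lower and 2 higher, beside 2.59% and 3.36%. Leaving out control mouse 5 gave the same counts, beside 2.72% and 3.77%. Leaving out control mouse 10 gave 9 lower and 1 higher, beside 3.55% and 4.93%. Of the members called lower, Ndufv2 kept its call whichever mouse was left out, and Uqcrc2 lost it without PLDP mouse 26 (edgeR unadjusted p = 0.0658). Ndufb4 lost its call without PLDP mouse 22 or control mouse 5 (edgeR unadjusted p of 0.0776 and 0.0833). For Ndufb3 this held without PLDP mouse 22, control mouse 2 or control mouse 5, with edgeR unadjusted p from 0.0656 to 0.0882. Ndufs1 lost its call without PLDP mouse 17 or 26 or control mouse 2 or 10 (from 0.0697 to 0.125), and mt-Co1 without PLDP mouse 26 or control mouse 2 or 5 (from 0.0666 to 0.199). Uqcrfs1 and Atp5c1 lost theirs without PLDP mouse 22 or 26 or control mouse 2 or 5 (from 0.0824 to 0.166 and from 0.106 to 0.214). All 8 kept a log2 fold change below 0.

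**Figure D5:**
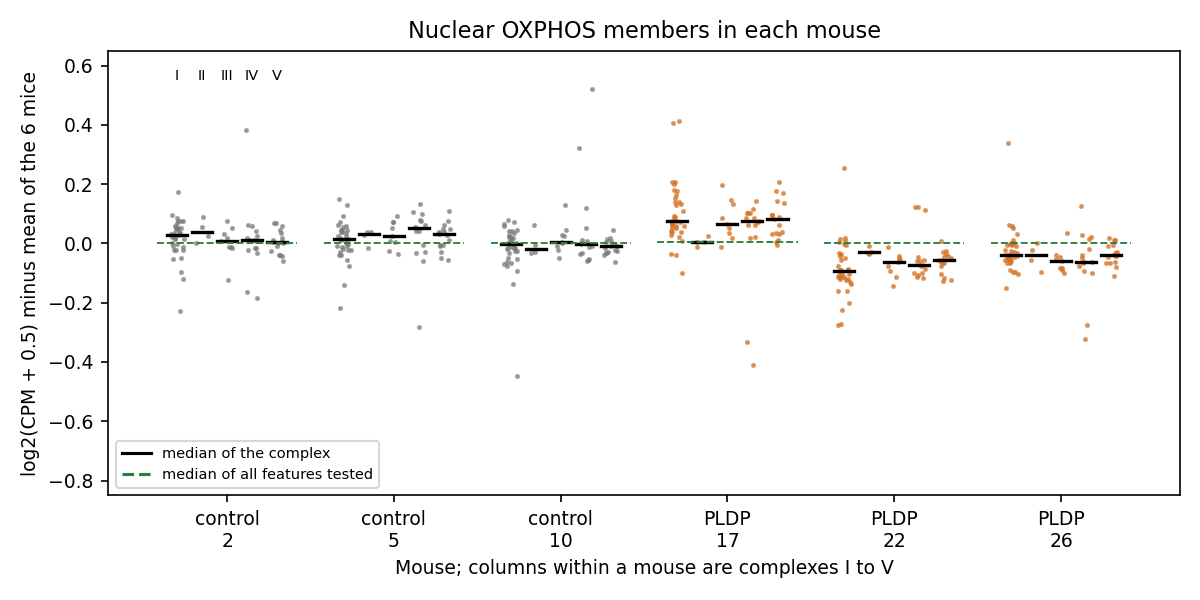
Difference of each nuclear member from its mean over the 6 mice on the log2(CPM + 0.5) scale (y axis), with 1 group of columns per mouse (x axis) and 1 column per complex from I to V. Black bars are medians of a complex and dashed lines medians of all features: mouse 17 lies above 0 and mice 22 and 26 below it, most complexes by 0.04 to 0.09.

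Promoters of nuclear members were compared with all promoters because these genes are known targets of shared transcription factors. RefSeq windows of 300 bases (250 before and 50 after the start, build GRCm38.p6) were found for 68 of the 83 nuclear members. The core letters of NRF1 sites, GCATGCGC, searched on both strands, were present for 10 of these 68 (14.7%) and for 3.05% of all genes with a window. The letters CCGGAAG of GABPA sites were present for 16 (23.5%) against 9.93% of all genes. AAGATGGC of YY1 sites was present for 10 (14.7%) against 3.19%, and TCAAGGTCA of ESRRA sites for 2 (2.94%) against 0.466%. No string contains another. The median log2 fold change was -0.04 for members with the NRF1 letters and -0.02 for those without, 0.00 and -0.03 for the GABPA letters, 0.00 and -0.02 for the YY1 letters, and -0.03 and -0.02 for the ESRRA letters. Of the 68 members, 31 held at least 1 of the 4 strings, among them Ndufs3, called higher, with the GABPA letters, and none of the 5 called lower that have a window. Atp5l, which encodes subunit g of the ATP synthase, is shown because it held the NRF1 and GABPA letters (capitals, GABPA on the reverse strand) before its start, at chr9:44920843-44920992 on the minus strand.
Atp5l: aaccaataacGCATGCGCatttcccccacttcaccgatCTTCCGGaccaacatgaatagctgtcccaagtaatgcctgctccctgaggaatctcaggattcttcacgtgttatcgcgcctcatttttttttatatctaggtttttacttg

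Genes that serve the complexes without being subunits were read against the share of all features called, 8.6% in either direction. Of the assembly factors of complex I, II and III, and IV, 0 of 14, 0 of 10 and 0 of 19 tested passed at an unadjusted p under 0.05 in edgeR. Of 4 assembly factors of complex V, Atpaf1, which helps to form the catalytic head, was lower (59.8 ± 4.26 against 54.2 ± 1.83 CPM, SD, n = 3, log2 fold change -0.14 ± 0.06, edgeR unadjusted p = 0.0276). Of 13 genes of mitochondrial DNA replication and transcription, Ssbp1, which binds single-stranded mitochondrial DNA, was lower. It stood at 19.3, 21.4 and 17.9 CPM in control mice and at 16.7, 16.5 and 16.8 CPM in PLDP mice, without overlap (log2 fold change -0.23 ± 0.08, edgeR unadjusted p = 0.0111). Of 75 mitochondrial ribosomal proteins, Mrps16 was higher (log2 fold change 0.24 ± 0.09, edgeR unadjusted p = 0.0139) and 0 were lower, which is 1.33% called.

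The pyruvate dehydrogenase complex and citric acid cycle, which supply NADH and succinate, had 2 members lower (11.8%) and 1 higher (5.88%) among 17, beside 3.69% and 4.91% of all features. Pdha1, a catalytic subunit of pyruvate dehydrogenase, was at 235, 238 and 232 CPM in control mice and at 213, 226.9 and 212 CPM in PLDP mice, without overlap (log2 fold change -0.11 ± 0.04, edgeR unadjusted p = 0.0129). Dld, which this complex shares with other dehydrogenases, had a log2 fold change of -0.12 ± 0.05 (edgeR unadjusted p = 0.0238). Idh3g, a subunit of isocitrate dehydrogenase, was at 111, 111 and 110 CPM in control mice and at 126, 116 and 118 CPM in PLDP mice (log2 fold change 0.12 ± 0.04, edgeR unadjusted p = 0.0191). Of 10 genes of cardiolipin and cristae, 1 was called, near the 8.6% of all features: Chchd3, a part of the cristae-forming MICOS complex, was lower (log2 fold change -0.15 ± 0.06, edgeR unadjusted p = 0.0250). Of 9 regulators of mitochondrial biogenesis and 13 electron carriers, metabolite carriers and porins, 0 passed, where 8.6% of all features did. The smallest edgeR adjusted p in these lists was 0.423.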

How the data were processed

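The authors deposited whole-number read counts per feature, 1 file per mouse and without normalization. Per the labels, whose processing notes name cutadapt 2.9, HISAT2 2.2.0, featureCounts and DESeq2 1.6.3 and the builds GRCh38 and GRCm38, reads were trimmed, aligned and counted, and the role of each build, the annotation, the use of strand and the handling of reads matching several places are not given in the sources used here. Such reads can fall on a gene or on its copy. Members and lists were chosen with earlier results of these data known.

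Counts were filtered with filterByExpr (minimum count 10, minimum total 15), scaled with TMM factors, and the diets compared in edgeR 4.0.16 (R 4.3.3) by glmQLFit followed by glmQLFTest, with no other term. Fold changes are PLDP over control. A call was an unadjusted p under 0.05, with Benjamini-Hochberg values over all 18580 features tested beside it. SE is the size of the log2 fold change divided by the square root of F. CPM use TMM library sizes. Replicates are separate mice. In simulated counts for this comparison, the test recovered 172 of 200 features changed 2-fold and called 16 of the unchanged ones, of 18580 features, after adjustment. Depth per mouse was from 18797061 to 23938729 counts.

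Copies were found by blastn 2.17.0 of each member's longest coding transcript against GENCODE M21 transcripts (at least 95% identity over 150 bases), and counts were added for 21 copies at 98% or more over at least 50% of the copy, an alternative chosen after seeing the data. Named members were those encoded in mitochondria, those called, the 3 most abundant nuclear members per complex by length, those failing the filter and the isoform sets. From each pathway list, up to 3 genes with the smallest p under 0.05 were named, and marker lists were read as sums. Alternatives changed the filter, scaling, test (DESeq2 1.42.0, limma 3.58.1), GC and length correction (splines of 5 degrees of freedom) or left out a mouse.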

Additional observations from a re-analysis of the deposited data

How the results depend on the processing

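With DESeq2, 0 members were higher and 5 lower in place of 2 and 8, beside 3.04% and 1.95% of all features. With correction for GC content and exon length, 13 were lower, beside 4.32% of all features. With copies added, 1 was higher, beside 4.92%. Leaving out 1 mouse gave from 1 to 2 members higher and from 3 to 28 lower. In these fits, from 3.36% to 6.86% of all features were higher and from 2.59% to 5.69% lower. The nuclear median stayed at or below 0 in all 16 alternatives, from -0.07 without PLDP mouse 17 to 0.00 without PLDP mouse 22, and the mitochondrial median moved by less than the spread between mice in each. The PLDP to control ratio of the mitochondrial to nuclear ratio was 1.0005 without mt-Co1 and Atp5b. Of the called members, Ndufv2 kept its call in 16 of 16 alternatives, Uqcrc2 in 15, Ndufb4 in 14, Ndufa12 and Ndufb3 in 13, Ndufs1 and Ndufs3 in 12, Uqcrfs1 and mt-Co1 in 10 and Atp5c1 in 9. No paired analysis was possible because the diets share no mouse numbers. Depth limits Cox8b, with at least 8 counts per mouse, more than the other tested members.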

Other observations

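Some genes tied to the complexes lie outside the naming rule. Ndufab1, the acyl carrier protein that is also a complex I subunit, was at 74.4, 75.4 and 71.1 CPM in control mice and at 69.0, 66.8 and 65.2 CPM in PLDP mice, without overlap (log2 fold change -0.14, edgeR unadjusted p = 0.0125, adjusted p = 0.437). Ndufb1-ps stood at 36.1, 35.2 and 35.0 CPM in control mice and at 33.7, 31.2 and 33.4 CPM in PLDP mice, also without overlap (log2 fold change -0.12, edgeR unadjusted p = 0.0679). Cycs, which encodes the electron carrier cytochrome c, had a log2 fold change of -0.07, and Usmg5, a small ATP synthase subunit, one of -0.07. Atpif1, the inhibitor of ATP synthase, had 0.01, and Ndufa4l2, a relative of Ndufa4, had 0.21 with all PLDP mice above all control mice (1.83, 1.63 and 1.55 against 2.00, 1.89 and 1.92 CPM). None of the 4 passed the edgeR test at an unadjusted p under 0.05. These genes were chosen after their values were seen.

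In a separate block of mitochondrial-like pseudogenes on chromosome 2, 1 of 3 rows passed the test. Gm13339, which matches mt-Nd2 at 96.7% over 510 bases, was at 14.4, 16.1 and 12.5 CPM in control mice and at 22.5, 22.0 and 16.7 CPM in PLDP mice, a log2 fold change of 0.51 (edgeR unadjusted p = 0.000232, adjusted p = 0.132). Its neighbours Gm13340, a copy of mt-Co1, and Gm13341, a copy of mt-Co2, had log2 fold changes of 0.16 and 0.15. The groups overlapped for both, with edgeR unadjusted p of 0.0518 and 0.0559. Neither was among the copies whose counts were added. BC002163, a processed copy of Ndufs5, was at 13.5, 14.7 and 14.8 CPM in control mice and at 18.3, 16.3 and 15.6 CPM in PLDP mice (log2 fold change 0.22, edgeR unadjusted p = 0.0186, adjusted p = 0.459), while Ndufs5 had 0.06 (edgeR unadjusted p = 0.241). These rows were also chosen after their values were seen.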
